A study of Mus musculus with 4 samples.

Results

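Pvalb, Calb1, Calb2, Nos1, Necab1 and Hpca, genes used to mark classes of neurons by their calcium-binding proteins or by nitric oxide synthase, were followed through RNA sequencing of mouse septal tissue. They were chosen by symbol, with earlier results of these data known, and all 6 were among the 15409 genes listed in every library. All 6 also passed the filter for testing, a mean over the 4 libraries of 1 or more CPM (reads scaled to a common library size), which kept 13912 genes. The tissue came from mice that lack T cell receptor beta (TCRb-/-) and from wild-type mice (WT). Mice of both genotypes had been restrained in a plastic cone for 30 min a day on 3 days, and tissue was taken 1.5 h after the last session. No unstressed group was analysed here, so every value describes stressed tissue. Each genotype had 2 libraries, 1 from experiment 1 and 1 from experiment 2, and each library pooled the tissue of 4 to 5 mice. The sources used here do not give strain, age or sex.

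The septum is a midline forebrain region built mainly of GABA neurons. Its medial part holds parvalbumin neurons that fire rhythmically and project to the hippocampus, beside cholinergic neurons, and its lateral part holds mostly GABA neurons, many of which contain calbindin or calretinin. Parvalbumin, calbindin and calretinin are cytosolic proteins that bind calcium with EF-hands, a helix-loop-helix fold, and they are widely used to tell interneuron classes apart. Neuronal nitric oxide synthase, encoded by Nos1, makes the diffusible messenger nitric oxide when calcium rises.

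The EF-hand loop is the calcium-binding part of all the encoded proteins but that of Nos1, so a loop is shown for each of 4 genes as a stretch of 36 coding bases, or 12 codons. The letters come from the GENCODE M21 transcripts (GRCm38), and the capitals mark the first codon, for aspartate, and the last, for glutamate, which both help to hold the calcium ion. Each of these loops lies inside a single coding exon.
Pvalb: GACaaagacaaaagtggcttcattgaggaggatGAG
Calb1: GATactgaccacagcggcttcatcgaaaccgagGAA
Calb2: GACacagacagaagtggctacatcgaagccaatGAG
Hpca: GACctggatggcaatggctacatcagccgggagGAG
The Pvalb loop lies at chr15:78202526-78202561 (minus strand, exon 3), the Calb1 loop at chr4:15895644-15895679 (plus strand, exon 5), the Calb2 loop at chr8:110149362-110149397 (minus strand, exon 5) and the Hpca loop at chr4:129118382-129118417 (minus strand, exon 2). Searched with the PROSITE EF-hand pattern, the coding sequences held 2 loops in Pvalb, 4 in Calb1, 5 in Calb2, 3 in Hpca and 1 in Necab1. Nos1 held 0. A loop was found in 217 of 21634 coding genes (1.00%), and the strict pattern passes over loops that depart from its letters. Calb1 and Calb2, which encode the paired proteins calbindin and calretinin, shared 65.9% of 778 aligned coding bases.

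All 6 are protein-coding genes. In GRCm38, Pvalb lies on chromosome 15 from 78191114 to 78206400, Calb2 on chromosome 8 from 110137502 to 110168210 and Nos1 on chromosome 5 from 117781032 to 117958840. The other 3 lie on chromosome 4, Necab1 from 14952245 to 15149794, Calb1 from 15881264 to 15908064 and Hpca from 129111570 to 129122036. Exons of Nos1 and Necab1 share 268 and 410 bases with an antisense gene, and those of Hpca share 57 bases with Tmem54 on the other strand. Strand use in counting is not given in the sources used here, so reads of a gene and its antisense partner cannot be told apart. Of these partners only the one beside Necab1, Gm11837, was listed, at 1.72 to 2.91 CPM.

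The 4 libraries held 19988137 to 26210790 reads, and Trbc2, a constant segment of that receptor chain, had 0 reads in both TCRb-/- libraries against 169 and 86 in WT replicates 1 and 2. The presence of septal genes was read with a marker list, without other tissue to compare, so the septal share of the pieces is not known. Of 8 septal genes 7 were listed, summing to 187 to 260 CPM per library, led by the neuropeptide gene Nts (56.7 to 76.5 CPM), and all 8 cholinergic genes were listed, summing to 150 to 177 CPM. Drd3 was not among the listed genes. Marker lists for neighbouring tissue were also present, and their values stand beside the results below. No listed marker of any list was at 0 in a library. The p-values measure the spread between these pools only. With 2 libraries against 2, the smallest p that exact permutation allows for 1 gene is 0.333, and tests rest on limma models over all genes, with p-values adjusted by Benjamini-Hochberg and called under 0.05.

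The markers differed widely in level. Per kilobase of merged exons, the scale on which genes can be set against each other, Calb2 was at 317 ± 165 CPM per kb (SD over all 4 libraries), Hpca at 306 ± 142 and Calb1 at 105 ± 13.9. Pvalb was at 35.4 ± 14.3 CPM per kb, Necab1 at 23.3 ± 3.31 and Nos1 at 3.39 ± 0.438. The libraries of Calb2 and Hpca overlapped on this scale, and Hpca was the higher gene in both experiment 1 libraries but the lower in both of experiment 2. Those of Pvalb and Necab1 overlapped too, but within every library Pvalb was the higher gene. The gap was smallest in TCRb-/- replicate 1 (22.3 against 21.3 CPM per kb). The other neighbours in the order did not overlap: the lowest Hpca library (139 CPM per kb) lay above the highest Calb1 library (118), the lowest Calb1 library (88.0) above the highest Pvalb library (54.3), and the lowest Necab1 library (20.6) above the highest Nos1 library (3.80).

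**Figure D1:**
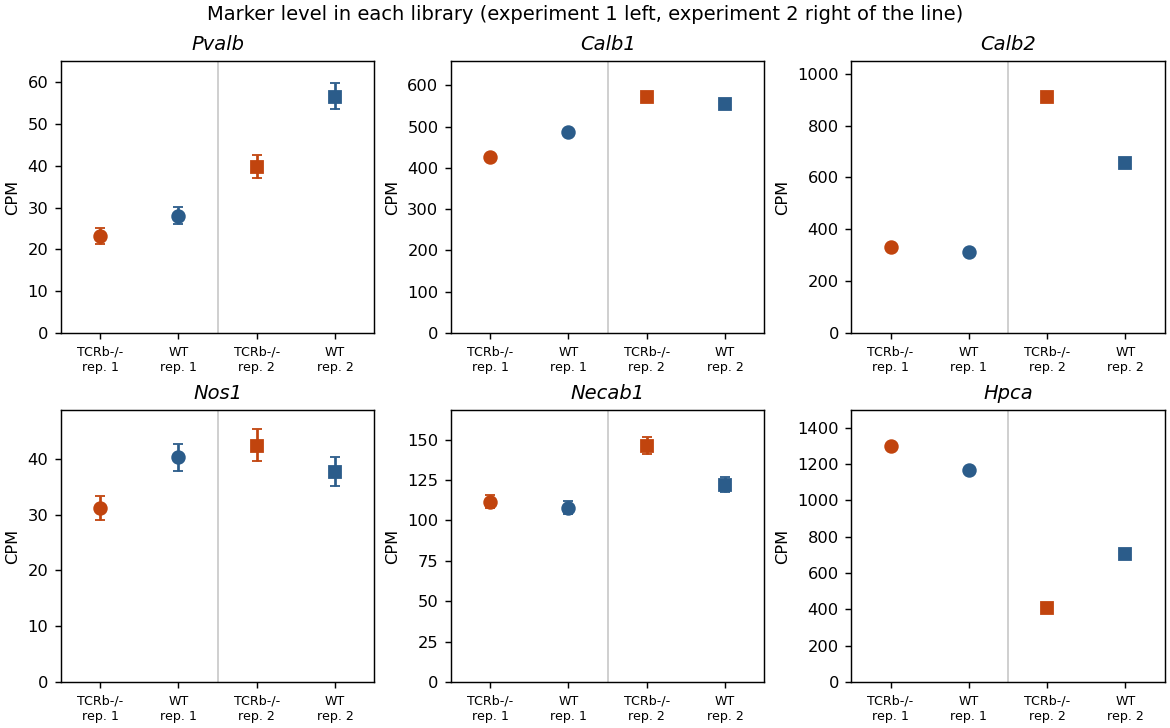
Level of each marker in CPM (vertical axes, starting at 0) in the 4 libraries, TCRb-/- in orange-red and WT in blue, circles for experiment 1 and squares for experiment 2. Bars are exact 95% counting intervals, often smaller than the symbol; Hpca is highest in the experiment 1 libraries (1301 and 1169 CPM) and Calb2 in the experiment 2 libraries (912 and 657 CPM).

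Pvalb encodes parvalbumin, a calcium buffer of fast-spiking GABA neurons. It had 23.2 CPM in TCRb-/- replicate 1 and 39.8 in TCRb-/- replicate 2, against 28.0 and 56.6 CPM in WT replicates 1 and 2. Both experiment 2 libraries lay above both experiment 1 libraries, and within each experiment the TCRb-/- library was the lower one. The counting intervals of the genotypes did not overlap in either experiment (21.4 to 25.2 against 26.0 to 30.1 CPM in experiment 1, and 37.1 to 42.7 against 53.5 to 59.8 CPM in experiment 2). These exact Clopper-Pearson intervals at 95% cover counting error only, not the spread between mice. Those of Calb2 and Hpca were also apart in both experiments, and Hpca was higher in TCRb-/- in experiment 1 but lower in experiment 2. The share of all genes with intervals apart was not counted.

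Calb1 encodes calbindin, a calcium buffer found in many lateral septal and striatal neurons. It stood at 426 CPM in TCRb-/- replicate 1, 573 in TCRb-/- replicate 2, 486 in WT replicate 1 and 555 in WT replicate 2. The experiment 2 libraries were again the higher ones, and the genotypes overlapped. Its highest library was 1.34 times its lowest, the narrowest range of the 6 genes.

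Calb2 encodes calretinin, the third classical buffer, which also marks midline thalamic neurons. It had 330 CPM in TCRb-/- replicate 1 and 912 in TCRb-/- replicate 2, against 312 and 657 CPM in WT replicates 1 and 2. TCRb-/- replicate 2 was far above the rest, and the genotypes overlapped because experiment 1 was low in both.

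Nos1, the nitric oxide synthase of neurons, stood at 31.1 CPM in TCRb-/- replicate 1, 42.4 in TCRb-/- replicate 2, 40.3 in WT replicate 1 and 37.6 in WT replicate 2. TCRb-/- replicate 1 was the low library, and neither the genotypes nor the experiments separated. Necab1 encodes a neuronal protein with an EF-hand near its start. It stood at 112 CPM in TCRb-/- replicate 1, 146 in TCRb-/- replicate 2, 108 in WT replicate 1 and 122 in WT replicate 2. Its experiment 2 libraries lay above those of experiment 1, by little.

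Hpca encodes hippocalcin, a calcium sensor that moves to membranes when calcium rises and is abundant in hippocampal and striatal neurons. It had 1301 CPM in TCRb-/- replicate 1 and 407 in TCRb-/- replicate 2, against 1169 and 702 CPM in WT replicates 1 and 2. Both experiment 1 libraries were high and TCRb-/- replicate 2, the highest for Calb2, was the lowest, so the genotypes overlapped. The highest library was 3.19 times the lowest, the widest range of the 6.

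The main comparison asked whether the markers differed between TCRb-/- and WT tissue. None of the 6 passed the threshold in limma, where 0 of 13912 genes (0%) were called, 43 had an unadjusted p under 0.05 and no marker was among those. In all 6 the TCRb-/- and WT libraries overlapped, as they did for most genes. Of all genes 17.8% did not overlap (9.76% higher and 8.04% lower in TCRb-/-). As TCRb-/- minus WT on the log2(CPM + 1) scale, the differences were -0.38 for Pvalb (SE 0.40), -0.07 for Calb1 (SE 0.18), 0.28 for Calb2 (SE 0.57), -0.10 for Nos1 (SE 0.19), 0.15 for Necab1 (SE 0.17) and -0.32 for Hpca (SE 0.57). Each had an adjusted p of 1.00 in limma. The 95% intervals were wide, from -1.39 to 0.63 for Pvalb, from -1.15 to 1.70 for Calb2 and from -1.75 to 1.12 for Hpca, against -0.54 to 0.39 for Calb1, -0.57 to 0.38 for Nos1 and -0.28 to 0.59 for Necab1. The median of the 6 differences was -0.08, beside 0.00069 over all genes tested.

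That fit counts the difference between experiments as spread, so the genotypes were also set side by side within each experiment. Pvalb differed by -0.26 in experiment 1 and -0.50 in experiment 2 (TCRb-/- minus WT, log2 scale), a level in TCRb-/- of 0.830 and 0.704 times that in WT. Calb2 differed by 0.08 and 0.47, and Necab1 by 0.05 and 0.26. These 3 genes kept their direction in both experiments. Calb1 (-0.19 and 0.05), Nos1 (-0.36 and 0.17) and Hpca (0.15 and -0.78) did not. The share of all genes that kept their direction was not counted, so 3 of 6 cannot be set against it. With the experiment as a block in the model, Pvalb had an unadjusted p of 0.00517 and Calb2 one of 0.0212 in limma, but both had an adjusted p of 0.848 and neither was called. The 95% intervals of that fit, not adjusted for the number of genes, were -0.60 to -0.15 for Pvalb and 0.05 to 0.50 for Calb2. They were -0.25 to 0.11 for Calb1, -0.39 to 0.20 for Nos1, -0.026 to 0.34 for Necab1 and -0.74 to 0.10 for Hpca. An unadjusted p under 0.05 was found in that fit for 784 genes (5.64%). After adjustment 2 genes (0.0144%) were called, 1 higher and 1 lower (0.00719% each), neither of them a marker. The higher one was Ttr, the most abundant gene of the choroid plexus list read below (0.85, adjusted p 0.0323 in limma). All 9 genes of that list had an unadjusted p under 0.05 in the same fit, beside 5.64% of all genes. Without TCRb-/- replicate 1, Hpca was called at -1.15 (adjusted p 0.0457 in limma). That fit compares TCRb-/- replicate 2 alone with both WT libraries.

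**Figure D2:**
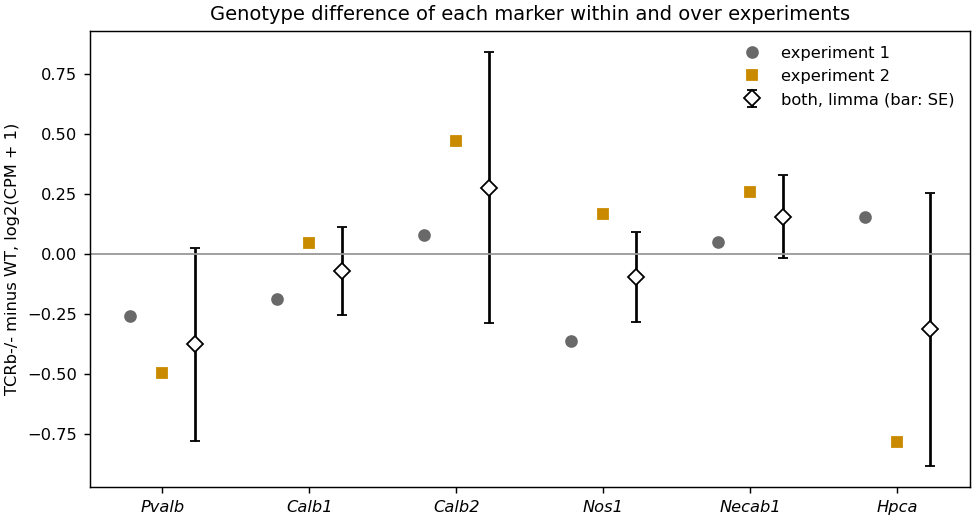
Difference TCRb-/- minus WT in log2(CPM + 1) (vertical axis) for each marker, within experiment 1 (circles), within experiment 2 (squares) and over both in limma (open diamonds, bars are SE). Pvalb lies below 0 in both experiments (-0.26 and -0.50), whereas Hpca lies on both sides (0.15 and -0.78).

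Between experiments, which the labels give as the batch, 4 of the 6 markers passed the threshold in limma, 3 higher and 1 lower in experiment 2. Of all 13912 genes 3292 (23.7%) were called, 8.95% higher and 14.7% lower. An unadjusted p under 0.05 was found for 5 of the 6 and for 39.2% of all genes. Calb2 rose by 1.27 on the log2(CPM + 1) scale from experiment 1 to experiment 2 (SE 0.14, adjusted p 0.00386 in limma), from 321 ± 12.7 to 784 ± 180 CPM (SD, n = 2). Pvalb rose by 0.87 (SE 0.16, adjusted p 0.0117), from 25.6 ± 3.35 to 48.2 ± 11.8 CPM. Calb1 rose by 0.31 (SE 0.08, adjusted p 0.0282), from 456 ± 42.4 to 564 ± 12.6 CPM. Hpca fell by 1.20 (SE 0.21, adjusted p 0.00971), from 1235 ± 93.2 to 555 ± 209 CPM.

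Necab1 differed by 0.28 (SE 0.09) and was not called (adjusted p 0.0589 in limma), but passed once genotype was added as a term (0.0348). With that term 5 of the 6 were called, 4 higher and 1 lower, beside 24.7% of all genes (9.29% higher and 15.4% lower), and 39.7% of all genes had an unadjusted p under 0.05. Nos1 differed by 0.17 (SE 0.13, adjusted p 0.367), with an interval from -0.13 to 0.47. The experiments did not overlap for 5 of the 6 genes, Nos1 being the exception, as was true of 67.3% of all genes (30.1% higher and 37.2% lower in experiment 2). In both genotypes the change had the same sign for Pvalb (0.75 in TCRb-/- and 0.99 in WT), Calb1 (0.43 and 0.19), Calb2 (1.46 and 1.07), Necab1 (0.39 and 0.18) and Hpca (-1.67 and -0.73). Nos1 had 0.43 in TCRb-/- and -0.10 in WT. Among all genes tested, the size of the Calb2 change exceeded that of 99.3%, the Hpca change 99.2% and the Pvalb change 97.2%. The calls depended on single libraries for Pvalb, not called without TCRb-/- replicate 1 (adjusted p 0.0563 in limma), and for Calb1, not called without TCRb-/- replicate 1 (0.0835) or TCRb-/- replicate 2 (0.0833). Moderated without a mean-variance trend, limma called Calb2 alone among the 6.

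**Figure D3:**
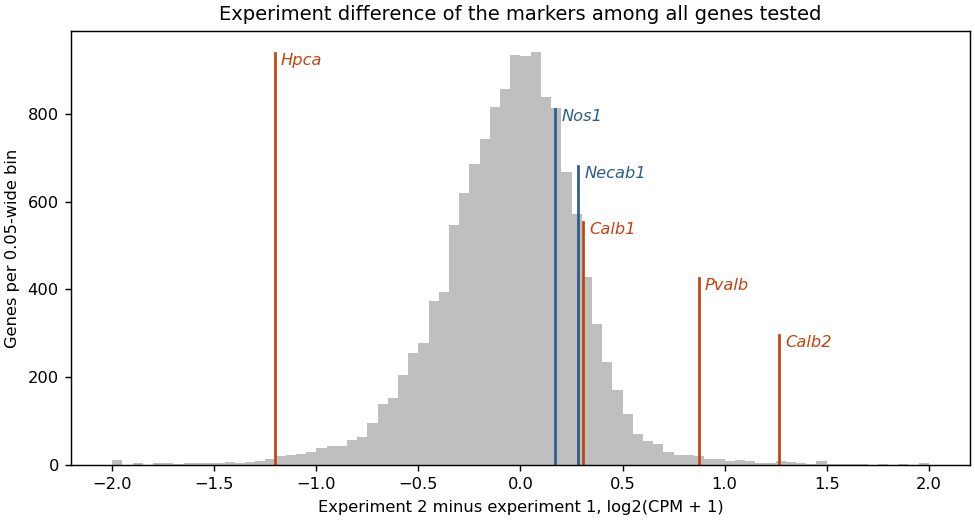
Number of genes (vertical axis, bins 0.05 wide) by their difference experiment 2 minus experiment 1 in log2(CPM + 1) (horizontal axis), with values beyond the axis placed in the end bins; red lines are markers called in limma, blue lines those not called, and line heights only separate the labels. Calb2 (1.27) and Pvalb (0.87) lie in the upper tail and Hpca (-1.20) in the lower tail, while Nos1 (0.17), Necab1 (0.28) and Calb1 (0.31) lie inside the main body.

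In tissue pieces, fewer neurons of a class cannot be told apart from less RNA per neuron. Markers of neighbouring regions moved with the same split of libraries, and their values stand here beside those of the 6 genes. The 16 striatal genes summed to 7374 CPM in TCRb-/- replicate 1, 1719 in TCRb-/- replicate 2, 6526 in WT replicate 1 and 3788 in WT replicate 2, the same order of libraries as for Hpca. All 16 were called lower in experiment 2, beside 14.7% of all genes, with a median of -1.42, and all 16 were lowest in TCRb-/- replicate 2. The most abundant, Ppp1r1b, which encodes the dopamine-regulated phosphatase inhibitor DARPP-32, stood at 1574 CPM in TCRb-/- replicate 1, 299.8 in TCRb-/- replicate 2, 1409 in WT replicate 1 and 804 in WT replicate 2. Cortical and hippocampal genes, Itpka the most abundant, summed to 510.3 and 554 CPM in the experiment 1 libraries (TCRb-/- and WT) and to 184 and 237 CPM in those of experiment 2, where all 11 were lower and 8 of them were called, beside the same 14.7%. The part of either tissue in the Hpca result was not tested.

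Thalamic genes, Prkcd the most abundant, summed to 423 and 429 CPM in the experiment 1 libraries (TCRb-/- and WT) and to 894 and 573 CPM in those of experiment 2. Prkcd made up 222 and 192 CPM of the experiment 1 sums and 284 and 210 CPM of those of experiment 2, and was not called (0.24). All 11 had a higher mean in experiment 2 and 7 were called higher, beside 8.95% of all genes, and all 11 were highest in TCRb-/- replicate 2, the library in which Calb2 was highest. Choroid plexus genes, led by Ttr, summed to 1359.9 and 749 CPM in experiment 1 (TCRb-/- and WT) and to 4805 and 2822 CPM in experiment 2, the same order of libraries as for Calb2. All 9 had a higher mean in experiment 2, and 8 were called higher, beside 8.95% of all genes. The septal list, with sums of 209 and 187 CPM in experiment 1 (TCRb-/- and WT) and 259.6 and 232 CPM in experiment 2, had that order too. Its median was 0.31, and 2 of 7 genes were called higher and 0 lower, beside 8.95% and 14.7% of all genes. The order of libraries for Pvalb, highest in WT replicate 2, was not that of any of these 3 lists. The part of neighbouring tissue in the Calb2, Pvalb and Calb1 results was not tested. Astrocyte, oligodendrocyte, microglia and endothelial lists had medians of 0.15, -0.04, -0.10 and -0.29. Of their 7, 7, 7 and 4 tested genes 0, 1, 1 and 0 were called, both lower, beside 14.7% of all genes. The ependymal list had a median of 0.38, with 2 of 5 genes called, both higher, beside 8.95% of all genes. The septal cholinergic list summed to 151 and 174 CPM in experiment 1 (TCRb-/- and WT) and to 150 and 177 CPM in experiment 2. Its median was -0.09 between experiments, with 1 of 8 genes called, lower, beside 14.7% of all genes. By genotype all 8 had a negative difference, with a median of -0.20 and 0 called, where 50.3% of all genes had a positive one. Other lists also lay on 1 side by genotype. All 16 striatal genes were negative (median -0.52). All 11 thalamic (0.30), 9 choroid plexus (0.55) and 5 ependymal genes (0.27) were positive.

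**Figure D4:**
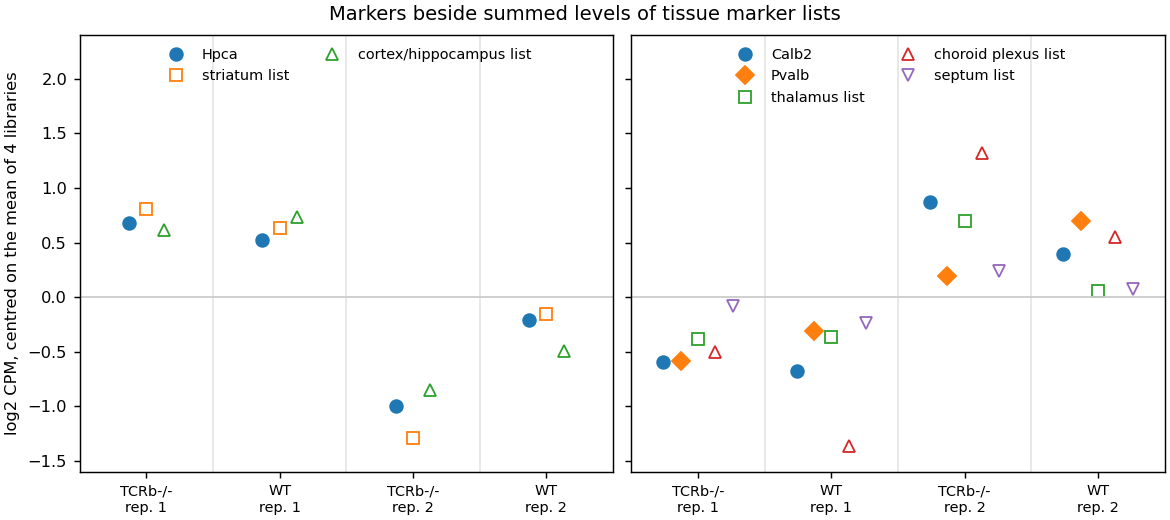
log2 CPM centred on the mean of the 4 libraries (vertical axis) in each library, for Hpca beside the summed striatal and cortical or hippocampal lists (left panel) and for Calb2 and Pvalb beside the summed thalamic, choroid plexus and septal lists (right panel). Hpca and the striatal list share their lowest library, TCRb-/- replicate 2 (407 and 1719 CPM), which is the highest for Calb2 (912 CPM) and the thalamic list (894 CPM).

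Transcript length also moved with the experiment. The difference between experiments and the merged exon length had a Spearman rho of -0.398 over 13572 genes, which share the same 4 libraries. Pvalb (1041 bases) and Calb2 (1743 bases) fell in the shortest of 10 length classes, whose median difference was 0.19 and whose 95th percentile was 0.61, below the values of both markers. Hpca (2922 bases) fell in a class with a median of 0.07 and a 5th percentile of -0.55, above its own value. Calb1 (4846 bases) and Necab1 (5237 bases) shared a class with a median of -0.09 and a 95th percentile of 0.38, and both lay inside that range. Nos1, with 11151 bases of merged exons, stood in the longest class (median -0.21, 95th percentile 0.24).

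The relatives of the markers were then read from the same fits. By genotype 0 genes of each of the 4 lists below were called in limma, with or without the experiment as a block. Their medians were -0.05 for EF-hand relatives, 0.00383 for nitric oxide and cGMP genes, -0.08 for GABA neuron identity genes and -0.12 for partners of fast-spiking neurons. Gad1 and Gad2, which encode the enzymes that make GABA, had differences of -0.30 (SE 0.12) and -0.18 (SE 0.12). Lhx6, a transcription factor of the Pvalb and Sst lineage, stood at 78.1 and 75.9 CPM in the TCRb-/- libraries and at 95 and 92.7 CPM in the WT libraries, a difference of -0.28 (SE 0.12). Gad1, Gad2 and Lhx6 thus had a lower value in TCRb-/- in both experiments, with none called. How many of all genes did so was not counted. Slc32a1, the vesicular GABA transporter, and Sst, the somatostatin gene, differed by 0.06 (SE 0.17) and -0.03 (SE 0.16). Both changed sign between experiments, Slc32a1 from 0.30 to -0.17 and Sst from 0.22 to -0.28. So did Kcnc1, a fast-spiking partner, from 0.17 to -0.09. Of the 29 GABA neuron identity genes, 19 had a negative and 10 a positive difference over both experiments.

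Between experiments, 12 of 23 EF-hand relatives were called (52.2%, beside 23.7% of all genes), 6 higher and 6 lower in experiment 2, with a median of -0.08. The highest were Scgn, which encodes the EF-hand protein secretagogin (0.74, SE 0.18), Hpcal1 (0.46, SE 0.07) and Kcnip1 (0.39, SE 0.06). The lowest were Caln1 (-0.998, SE 0.20), Hpcal4 (-0.73, SE 0.09) and Cabp1 (-0.71, SE 0.14). The close relatives of Hpca thus took both directions. Hpcal1 stood at 117 and 130 CPM in experiment 1 (TCRb-/- and WT) and at 167 and 174 CPM in experiment 2, whereas Hpcal4 stood at 989 and 981 CPM in experiment 1 and at 545 and 649 CPM in experiment 2. Vsnl1, visinin-like protein, rose by 0.35 (SE 0.07), and Ncald, neurocalcin, differed by -0.13 (SE 0.08) and was not called. Of the relatives of Necab1, Necab2 differed by -0.24 (SE 0.08) and Necab3 by -0.08 (SE 0.16), neither called.

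Of 16 nitric oxide and cGMP genes 3 were called between experiments (18.8%, beside 23.7% of all genes). Nosip, which encodes a partner of nitric oxide synthases, rose by 0.21 (SE 0.06). Pde2a, a cGMP-stimulated phosphodiesterase, fell by 0.85 (SE 0.11), and Gucy1a1, a subunit of the nitric oxide receptor guanylate cyclase listed as Gucy1a3, fell by 0.81 (SE 0.15). Nos1ap, the adaptor of Nos1, differed by -0.38 (SE 0.13) and passed only with genotype as a term (adjusted p 0.0786 without it and 0.0175 with it, limma), whereas Nosip passed only without it (0.0451 and 0.0585). Nos2 was not among the listed genes.

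Of 29 GABA neuron identity genes 9 were called between experiments (31.0%, beside 23.7% of all genes), 2 higher and 7 lower, beside 8.95% and 14.7%. Sncg, gamma-synuclein, rose by 0.52 (SE 0.08) and Nxph1, neurexophilin, by 0.31 (SE 0.07). The lowest were Vip (-1.10, SE 0.17), Reln (-0.98, SE 0.17) and Npy (-0.78, SE 0.20), 3 markers of cortical and other interneuron classes. Gad1 (0.01), Gad2 (0.08), Slc32a1 (-0.11), Sst (0.02) and Lhx6 (-0.04) had differences within 1 SE of 0 and were not called. Of 18 fast-spiking partners 4 were called (22.2%, beside 23.7% of all genes), all lower in experiment 2, beside 14.7%. Scn4b (-2.43, SE 0.53), Hapln1 (-0.91, SE 0.20) and Kcna1 (-0.53, SE 0.10) were the lowest. Scn4b, a sodium channel subunit also abundant in striatal neurons, stood at 259 and 242 CPM in experiment 1 (TCRb-/- and WT) and at 22.0 and 94.4 CPM in experiment 2. Kcnc1, the potassium channel that lets Pvalb neurons fire fast, differed by 0.21 (SE 0.08) and was not called. Of the 18 partners 0 were called higher, beside 8.95% of all genes, and 2 were with genotype as a term, beside 9.29%.

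The genes whose pattern over the 4 libraries was most like each marker were found by the distance between centred log2(CPM + 1) values, among the 9815 genes that averaged 10 CPM or more. This describes 4 libraries only. Calb1 was matched most closely, by Pnmal2 (distance 0.014) and Ino80b (0.018), Necab1 by Tbc1d7 (0.030) and Wls (0.033), Nos1 by Copa (0.047) and Efcab2 (0.053), and Hpca by Wnt2 (0.049) and Acvr1c (0.058). Calb2 was matched by Rdh5 (0.14) and Agt (0.18). Pvalb had the most distant matches, Nr2f2 (0.33) and Tac2 (0.38). Among the markers themselves, Calb1 lay nearest to Nos1 (0.20) and Necab1 (0.23), and the widest distance was between Calb2 and Hpca (2.63).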

How the data were processed

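Per the labels' protocols, pooled septal tissue was dounced, the lysate was cleared by centrifugation before and after detergent was added, and RNA came from the supernatant. The libraries used a SMARTer kit for small inputs and an Illumina HiSeq2500. HISAT2 2.1.0, SAMtools 1.3, HTSeq 0.9.1, R 4.0.5 and limma 3.46.0 are named in the submitters' processing notes, with build mm10. The sources used here give neither the annotation nor a filter on genes. The authors deposited log2 values per gene and library. From the values, each is log2 of CPM with 0.5 added to the reads and 1 to the library total, and solving for the total gave whole reads for 100% of values within 0.001 reads. The 17 spike-in rows of 15426 were left out.

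Genotypes and experiments were each compared in limma 3.58.1 (R 4.3.3; trend, two-sided, Benjamini-Hochberg over all genes) on log2(CPM + 1), which understates changes of low genes. Other steps used Python 3.11.15. The script was tested on simulated data. Replicate numbers equal the experiment in the labels and so pair the samples: deviations of same-numbered libraries correlated at 0.72 across genes. Alternatives were pseudocounts of 0.1 and 5, no filter or 10 CPM, 2 scalings, no trend, voom weights, the block and leaving out each library. Members and lists were chosen with earlier results of these data known. Named are the 6 markers, a few fixed relatives, up to 3 called genes per direction of each list of relatives, the top gene of tissue lists used in the text, and the 2 nearest patterns per marker. Gene lengths and positions are from GENCODE M21. Gucy1a1 and Gucy1b1 were listed under older symbols. Intervals are exact (Clopper-Pearson).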

Additional observations from a re-analysis of the deposited data

Results flagged for a closer look

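For 3 markers the genotype difference had opposite signs in the 2 experiments, each with 1 library per genotype, and the change of sign was not tested. Hpca differed by 0.15 (TCRb-/- minus WT, log2 scale) in experiment 1 and by -0.78 in experiment 2. Nos1 differed by -0.36 and 0.17, and Calb1 by -0.19 and 0.045. The striatal list, beside Hpca, had medians of 0.18 and -1.16 in experiments 1 and 2.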

How the results depend on the processing

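With all libraries, none of the 6 markers was called by genotype under any alternative. Of 132 single-gene values, 121 kept their direction and their side of the threshold, with 0 reversed. Changing the filter, the trend or the block leaves a difference itself unchanged, so its direction could not reverse there. With 1 library left out, 10 of 48 single-gene values reversed direction. The number of genes called by genotype went from 0 to 2 with the replicate block and to 2 with the block and quantile normalization. The block changed no marker's genotype call. Between experiments, 3292 genes and 4 markers became 629 and 1 (Calb2) without a trend, and 0 and 0 with genotype as a further term and no trend. Joining the block or genotype term to another scaling or to no trend was chosen after seeing the data. Necab1 was called between experiments under both scalings (0.31 each) and with genotype as a term (0.28). The cause was not tested.

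Leaving out 1 library leaves the experiments unbalanced between genotypes and 1 sample in an arm, assumed to vary like the others. By genotype, genes called then ranged from 0 to 47 and markers called from 0 to 1 (Hpca without TCRb-/- replicate 1). Differences ranged from -0.87 to 0.12 for Pvalb, -0.28 to 0.14 for Calb1, -0.46 to 1.01 for Calb2, -0.31 to 0.12 for Nos1, -0.038 to 0.35 for Necab1 and -1.15 to 0.52 for Hpca. Between experiments, genes called ranged from 1406 to 3390, markers from 2 to 5, and Nos1 from -0.011 to 0.35. One read is worth 0.0382 to 0.05 CPM, so counting error is small for all 6 markers.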

Other observations

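The 4 Kcnip genes, which encode potassium channel-interacting proteins and were chosen after their values were seen, were all called between experiments in limma, beside 23.7% of all genes, and took both directions. Kcnip1 (0.39) and Kcnip4 (0.37) rose, whereas Kcnip2 and Kcnip3 fell by 0.67 and 0.61. Kcnip2 stood at 376 and 311 CPM in experiment 1 (TCRb-/- and WT) and at 186 and 249 CPM in experiment 2, the same order of libraries as Hpca.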
